A study of Homo sapiens with 48 samples.

Results

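What 6 h of incubation with AII added to the response to EGF was measured by comparing 4 libraries of cells given AII + EGF with 3 libraries of cells given EGF alone, 7 of the 48 libraries of the series. AII is angiotensin II, the peptide hormone of the renin-angiotensin system, and EGF is epidermal growth factor. All cells were one HEK293 clone, a human embryonic kidney line made to express AT1R, the type 1 AII receptor encoded by AGTR1, stably from a plasmid. The clone was selected with puromycin, in the presence of the AT1R blocker losartan, by limited dilution, so every library comes from 1 clone that carries the receptor. The cells were in medium free of serum, for 6 h or 24 h, left untreated (control) or given AII (1 nM), EGF (10 µg/L) or AII + EGF, and poly(A) RNA was sequenced. Each of these 8 groups has 6 libraries by the labels, which do not say whether libraries of a group came from separate cultures, so the p-values measure only the spread between these samples.

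The members were taken from the labels, but 5 of the 12 libraries labelled AII + EGF or EGF at 6 h were left out because of their counts. Of the 1128 pairs of libraries in the series, 4 differed by less than the sampling of reads allows (chi-square per degree of freedom under 1 over genes that had 100 counts or more in both together). EGF replicates 1, 2 and 6 and AII + EGF replicate 4 at 6 h stood in such pairs. The closest 2 of the 7 libraries compared were EGF replicates 3 and 4, at 3.32, and AII + EGF replicates 1 and 2 reached 6.15. Both pairs stand at adjacent titles, and whether their libraries came from separate cultures is not given. The median was 48.9 over pairs within a group that were not below 1. The test described below called 366 genes in place of 574 without EGF replicate 4 and AII + EGF replicate 2. This fit was added after seeing the data. AII + EGF replicate 6 was left out because it did not sit with its group: on a scale from the AII libraries (0) to the AII + EGF libraries (1) at 6 h, built from 297 genes, it lay at −0.0608, while AII replicate 6 lay at 0.821. Leaving this library out is a choice made on expression, and it decides how many genes pass the test. With it added to the AII + EGF group, 121 genes passed the test described below in place of 574, and with the near-identical pairs added in its stead 463 passed. The labels were kept as they are, and the library is called AII + EGF replicate 6 below.

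The 4 AII + EGF libraries (replicates 1, 2, 3 and 5, always in this order) held 19.7 to 22.9 M counts and the 3 EGF libraries (replicates 3, 4 and 5) 28 to 30 M, so the groups did not overlap in depth, and what part this had in the results was not tested. The numbered titles of the libraries pass through the treatments of one time in runs. AII + EGF replicates 1 and 2 stand in the first run, which holds no EGF library of the comparison, and the other 5 libraries share 2 later runs, with 385 genes called when the first run is left out and 688 when runs are fitted as a block. The 7 HEK293 markers checked were all above 1 CPM (counts scaled to the effective library total) in the 7 libraries. Their summed level was 8320 to 10700 CPM under AII + EGF and 5960 to 6170 CPM under EGF, of which NEFM, a neurofilament gene that HEK293 cells express, made up 8590 and 4830 CPM on average. The means of NEFL (653 against 809 CPM) and VIM (190 against 255 CPM) were lower under AII + EGF, and those of KRT8, KRT18, PAX2 and LHX1 were higher. Of the blood (3), endothelial (3), fibroblast (4) and smooth muscle (2) markers, 0, 0, 2 and 1 exceeded 1 CPM, with CD3E, a T cell marker, at 0 counts. The summed fibroblast markers were 19.7 to 25.1 CPM under AII + EGF and 22.5 to 24.6 CPM under EGF.

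AT1R is coupled to Gq, which opens calcium stores and activates protein kinase C, and it can also activate the MAP kinase cascade, in part through EGFR, the receptor of EGF. EGFR is a tyrosine kinase whose MAP kinase signal reaches the ternary complex factors bound beside SRF at promoters of immediate-early genes such as EGR1, FOS and ARC. Some of these genes encode EGR and AP-1 transcription factors, which then act on a later set of genes that includes secreted proteases, cytokines and growth factors. Calcium and protein kinase C also reach CREB, and a heavier load on the secretory pathway induces chaperones of the endoplasmic reticulum (ER).

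The first question was which genes AII changed in the presence of EGF. A gene was called when its adjusted p was under 0.01 in the quasi-likelihood test of edgeR, adjusted after Benjamini and Hochberg, its change was at least 1.5-fold and its mean exceeded 5 CPM in the higher group. Of 19626 genes tested, 574 (2.92%) were called, 317 (1.62%) higher and 257 (1.31%) lower under AII + EGF than under EGF. At an unadjusted p under 0.05 there were 4618 genes. All 574 called genes had no overlap between the AII + EGF and the EGF libraries, which held for 30.4% of all genes tested. In RNA of whole cultures a change in every cell and a change in the share of responding cells cannot be told apart. The rises were the larger changes. Among the rises 124 reached 2-fold and 16 reached 4-fold, with a median log2 change (AII + EGF minus EGF) of 0.911, whereas 26 falls reached 2-fold and 0 reached 4-fold, with a median of −0.731. Protein-coding genes made up 94.6% of the rises and 95.7% of the falls. That was close to their share of 92.8% among tested genes above 5 CPM, and among all genes tested it was 72.6%. The median change of all genes tested was −0.00947, against which the medians of gene lists below can be read. A call required a mean above 5 CPM, so counts of calls in the lists can be read against 574 of the 11625 tested genes above it.

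**Figure D1:**
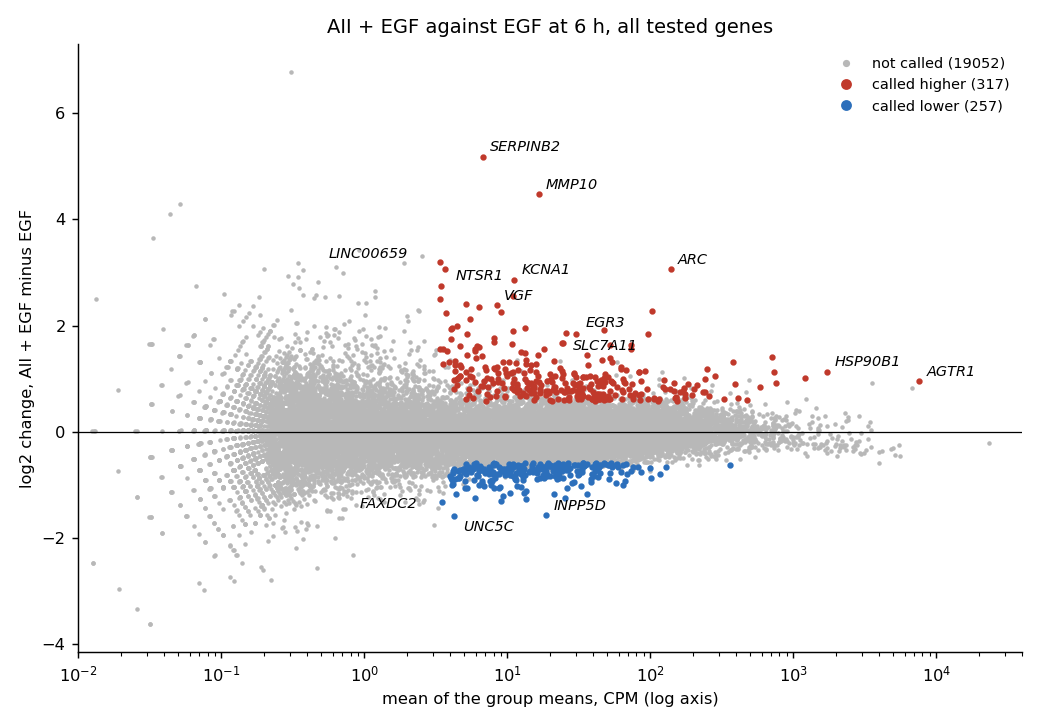
Log2 change of each tested gene (AII + EGF minus EGF at 6 h) against the mean of its AII + EGF and EGF group means in CPM on a log axis, with the 317 called rises and 257 called falls coloured. The largest called rises, SERPINB2 and MMP10, lie above 4 on the log2 scale, and no called fall reaches −2.

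The largest called rise was that of SERPINB2 (ENSG00000197632, chromosome 18, 63887705 to 63903888), which encodes plasminogen activator inhibitor type 2, a serpin that blocks urokinase. It measured 12.7, 12.2, 13.7 and 13.7 CPM in the AII + EGF libraries and 0.384, 0.493 and 0.191 CPM in the EGF libraries. The 4 joint values were nearly equal and all far above EGF alone, a log2 change of 5.18 ± 0.40 (SE, adjusted p = 5.18e-11). MMP10 (ENSG00000166670, chromosome 11, 102770502 to 102780628), the matrix metalloprotease stromelysin-2, measured 30.4, 28.8, 32.5 and 35.1 CPM against 1.27, 1.33 and 1.68 CPM. Again every joint library lay above every EGF library, by 4.47 ± 0.42 (adjusted p = 2.37e-09). In AII + EGF replicate 6 SERPINB2 stood at 0.488 CPM, within the EGF range, and MMP10 at 2.81 CPM, slightly above it. With this library added the changes were 4.87 (adjusted p = 7.11e-06) and 4.18 (adjusted p = 1.58e-05), and both genes remained called. In the list of plasminogen and matrix metalloprotease genes 3 of 13 tested were called higher and 0 lower (median 0.51), the third being SERPINE2 (0.69), another serpin of the urokinase system.

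IL11, a cytokine of the IL-6 family, measured 4.93, 6.8, 6.2 and 5.004 CPM under AII + EGF and 1.11, 0.607 and 1.30 CPM under EGF. The groups were well apart (2.50 ± 0.30, adjusted p = 1.75e-07). The 200 bases before the RefSeq start of SERPINB2, MMP10 and IL11 are shown because each holds the letters TGANTCA, the core of AP-1 sites, here in capitals (GRCh38.p14, 5′ to 3′ on the strand of the gene, ending at the base before the start):
SERPINB2 promoter, chr18:63887505-63887704, plus strand: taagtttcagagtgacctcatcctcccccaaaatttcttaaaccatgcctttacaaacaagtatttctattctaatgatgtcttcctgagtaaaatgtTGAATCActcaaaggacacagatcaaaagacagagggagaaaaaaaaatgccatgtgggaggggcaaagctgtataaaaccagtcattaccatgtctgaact
MMP10 promoter, chr11:102780629-102780828, minus strand: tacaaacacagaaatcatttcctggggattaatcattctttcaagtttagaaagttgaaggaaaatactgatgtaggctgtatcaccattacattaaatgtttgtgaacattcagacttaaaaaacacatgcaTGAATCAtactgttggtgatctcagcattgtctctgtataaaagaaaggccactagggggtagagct
IL11 promoter, chr19:55370464-55370663, minus strand: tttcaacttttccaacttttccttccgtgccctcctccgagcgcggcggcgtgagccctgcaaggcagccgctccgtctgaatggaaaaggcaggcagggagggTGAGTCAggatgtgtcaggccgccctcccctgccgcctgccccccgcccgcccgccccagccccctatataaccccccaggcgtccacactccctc
Among the 232 called rises with a promoter in the RefSeq set (250 bases before and 50 after the start), 28 (12.1%) held TGANTCA on either strand. The share was 3.47% among 202 called falls, 4.64% among all 12660 tested genes with a promoter and 3.89% among those above 5 CPM. GCGNGGGCG, the letters of an EGR site, stood in 25.9% of the raised, 13.9% of the lowered and 15.2% of all promoters, and in 16.7% of those above 5 CPM. The CArG box, the site of SRF, was found in 1.29%, 1.98%, 1.02% and 1.04% in the same order, with TCF7, PDGFA and ZNF562 as its 3 carriers among the rises. These are matches of letters and not measured binding. Both strands were searched, and a match of TGANTCA cannot lie inside one of TGACGTCA.

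The immediate-early genes fed by SRF and its ternary complex factors were the list with the highest median change. Of 22 tested, 10 were called higher and 0 lower, with a median of 0.911. ARC, a gene of neuronal plasticity on chromosome 8, measured 222, 265, 229 and 274 CPM under AII + EGF and 30.04, 27.7 and 31.6 CPM under EGF. Every joint value was several times the highest EGF value, and the change was 3.06 ± 0.32 (adjusted p = 1.46e-08). EGR3, a zinc finger transcription factor also on chromosome 8, measured 44.9, 47.9, 48.5 and 47.8 CPM against 12.95, 13.5 and 13.4 CPM. Both groups were tight and clearly separated (1.84 ± 0.24, adjusted p = 1.26e-06). EGR1 (ENSG00000120738, chromosome 5, 138465479 to 138469303), the founding member of that family, measured 189, 210, 242 and 283 CPM against 112, 111 and 122 CPM. Its groups did not overlap either, though the joint libraries spread widely. The change of 1.01 ± 0.32 was not called (adjusted p = 0.0334). This SE rests on a spread estimated over all 38 libraries of the fit. EGR1 was called in 5 of 14 alternatives of the processing and in 0 of the 7 fits that left out 1 library of the comparison. At 24 h EGR1 averaged 22.1 ± 9.44 CPM under AII + EGF and 25.5 ± 11.5 CPM under EGF (SD). FOS measured 10.6 to 14.7 CPM against 6.11 to 8.35 CPM, also without overlap, and was not called either (0.82 ± 0.40, adjusted p = 0.204). Of the same 14 alternatives 2 called FOS, and of the 7 fits 0 did. The other called members were NR4A3 (1.60), EGR2 (1.52), JUNB (1.36), NR4A1 (1.33), ZFP36 (1.28), IER3 (1.18), MAFF (1.17) and NR4A2 (0.80). ZFP36 encodes an mRNA decay factor, and the NR4A genes encode orphan nuclear receptors. In AII + EGF replicate 6 ARC was at 7.50, EGR3 at 2.29 and EGR1 at 4.65 CPM, each below all 3 EGF libraries. With it added, 4 of the 22 were called, the change of ARC was 2.75 (adjusted p = 0.00177) and that of EGR3 1.53 (adjusted p = 0.0332, no longer called).

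**Figure D2:**
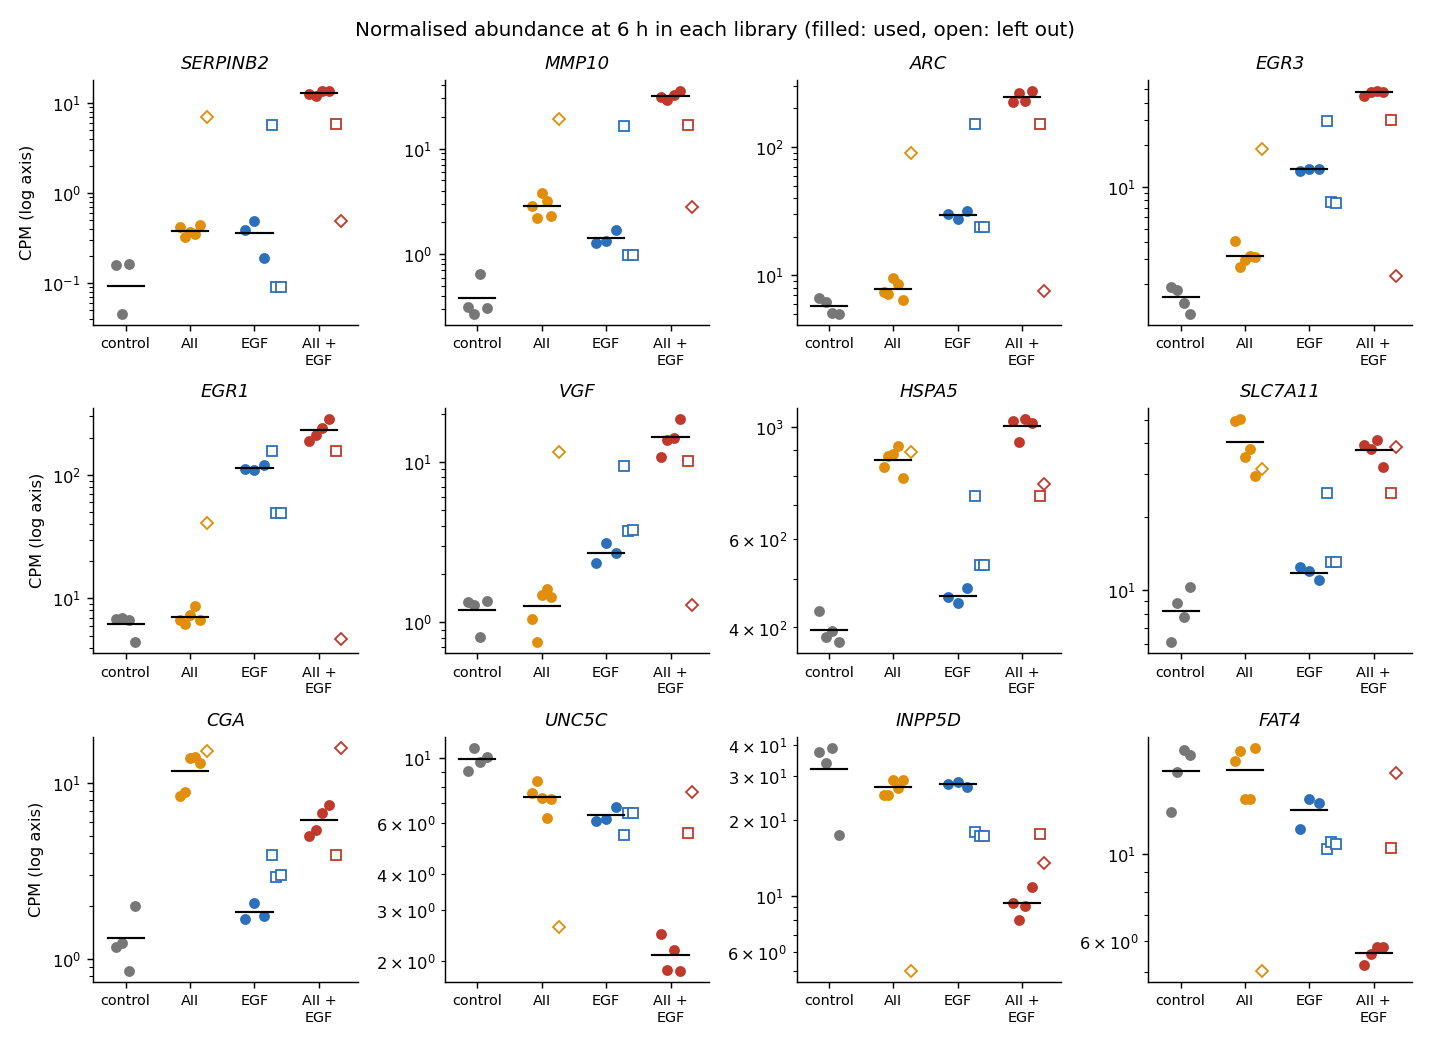
CPM on a log axis of 12 genes in every library at 6 h, for control, AII, EGF and AII + EGF. Filled circles are the libraries used, black bars their means, open squares the left-out libraries of near-identical pairs and open diamonds replicate 6 of AII and of AII + EGF, and 1 control library with 0 counts of SERPINB2 is not drawn. The filled AII + EGF circles lie above the filled EGF circles for SERPINB2, ARC and HSPA5 and below them for UNC5C, INPP5D and FAT4.

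Other families of transcription factor changed in a few members each. AP-1 subunits were called higher in 4 of 15 (median 0.411): JUNB, MAFF, FOSL2 (0.98) and BATF3 (0.78). FOSB had a change of 1.00 with a mean of 4.1 CPM, under the minimum. Of 12 ETS factors ETS1 was called (median 0.331), with 6.68, 3.64, 6.31 and 7.22 CPM against 0.884, 0.948 and 0.839 CPM. Replicate 2 was the lowest joint library but still far above the EGF libraries (2.74 ± 0.33, adjusted p = 2.87e-07). The corepressors of EGR factors and their targets had 4 of 10 called higher and 0 lower (median 0.762). These were TNFRSF12A (1.64), the receptor of the cytokine TWEAK, GADD45B (1.03), a stress-response gene, NAB2 (0.93), a corepressor that binds EGR proteins, and PDGFA (0.93), a growth factor. The cytoskeletal genes that SRF controls with its cofactors of the MRTF family had 0 of 28 called in either direction by edgeR (11 at an unadjusted p under 0.05, and 1 call by DESeq2), with a median of 0.142.

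The negative feedback genes of MAP kinase signalling rose in 3 of 19 (median 0.473): DUSP5 (0.93), a phosphatase of nuclear ERK, SPRY2 (0.77) and SPRED1 (0.68), inhibitors upstream of RAF. The list of EGF ligands and ERBB receptors had 1 called of 12 (median 0.128). HBEGF, a ligand of EGFR that is shed from the cell surface, measured 9.36, 10.1, 9.03 and 9.91 CPM under AII + EGF and 4.53, 4.7 and 4.997 CPM under EGF. The groups were separate and narrow, a change of 1.02 ± 0.14 (adjusted p = 3.01e-06, and 0.0189 with replicate 6 added). AREG, another ligand, changed by 2.42 ± 0.51 (adjusted p = 0.00111) at a mean of 1.52 CPM and was under the CPM minimum. EGFR itself measured 44.3 to 50.2 CPM against 29.6 to 35.5 CPM, and its change of 0.54 ± 0.14 (adjusted p = 0.0079) was below 1.5-fold. TGFB1, a cytokine of matrix formation, measured 73.5 to 88.9 CPM under AII + EGF and 55.0 to 59.4 CPM under EGF. The groups did not overlap, but the change of 0.47 ± 0.36 was not called (adjusted p = 0.461). The SE rests on the spread over all libraries of the fit, and TGFB1 averaged 11.7 ± 4.85 CPM (SD) in control. The list of TGF-beta ligands and SMAD feedback genes had 0 of 13 called by edgeR and by DESeq2 (6 at an unadjusted p under 0.05, median 0.0557).

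The transcript of the receptor for AII was itself higher. AGTR1 (ENSG00000144891, chromosome 3, 148697903 to 148743003) measured 10070, 9429, 10170 and 10460 CPM in the AII + EGF libraries and 5101, 5451 and 5020 CPM in the EGF libraries. The groups did not overlap, with a change of 0.95 ± 0.19 (adjusted p = 0.000645). Reads of the plasmid and of the chromosomal gene cannot be told apart in these counts. With AII + EGF replicate 6 (6103 CPM, above the EGF range) added the change was 0.84 and not called (adjusted p = 0.0112). AGTRAP, which encodes a protein that binds AT1R and promotes its internalisation, was lower (−0.82, adjusted p = 0.00116), and the other 8 tested genes of the angiotensin system and of receptor arrest were not called (list median −0.0846). Of 25 genes of Gq and calcium signalling ATP2B1, a calcium pump of the plasma membrane, was called (0.83), and the list median was −0.0577.

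Targets of CREB and cyclic AMP had 6 of 15 called higher and 0 lower (median 0.676): VGF, CGA, NRN1 and the 3 NR4A genes. VGF, a precursor of secreted neuropeptides, measured 10.7, 13.6, 14.1 and 18.4 CPM against 2.34, 3.11 and 2.71 CPM. The joint libraries were all higher and spread over a wide range (2.38 ± 0.30, adjusted p = 6.82e-07). CGA (ENSG00000135346, chromosome 6, 87085498 to 87095106), the alpha subunit of the glycoprotein hormones, measured 5.02, 5.46, 6.79 and 7.58 CPM against 1.69, 2.09 and 1.76 CPM. It was higher in all 4 joint libraries (1.75 ± 0.34, adjusted p = 0.000407). AII + EGF replicate 6, which lay near the AII libraries on the scale above, held 15.9 CPM of CGA, and the AII libraries averaged 11.7 CPM. The promoter of CGA is shown for its 2 copies of TGACGTCA, the full cyclic AMP response element, in capitals (same build and orientation):
CGA promoter, chr6:87095107-87095306, minus strand: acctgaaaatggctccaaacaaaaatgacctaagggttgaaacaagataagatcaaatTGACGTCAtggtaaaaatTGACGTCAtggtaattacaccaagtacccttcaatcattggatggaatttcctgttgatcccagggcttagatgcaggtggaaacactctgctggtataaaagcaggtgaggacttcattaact
VGF and MAFF held 1 copy each. TGACGTCA stood in 3.45% of the raised, 1.49% of the lowered and 3.13% of all promoters, and in 3.61% of those of tested genes above 5 CPM.

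KCNA1, a voltage-gated potassium channel, measured 20.8, 20.97, 17.96 and 18.7 CPM under AII + EGF and 2.69, 2.77 and 2.59 CPM under EGF. All joint values lay within a narrow band far above the EGF values (2.87 ± 0.28, adjusted p = 3.92e-09). KCNAB2, a cytosolic beta subunit of such channels, was lower (−0.73), and the other 3 tested genes of the KCNA list were not called. TAC1, the precursor of substance P, rose by 2.56 ± 0.25 (adjusted p = 3.29e-09) from 2.84 to 3.80 CPM under EGF to 14.6 to 22.6 CPM. NTSR1, the receptor of the peptide neurotensin, measured 8.58, 9.85, 4.33 and 3.41 CPM against 0.884, 0.834 and 0.610 CPM. The first 2 libraries, those of the first title run, were about double the other two, and all 4 exceeded EGF (3.07 ± 0.46, adjusted p = 1.29e-05). The long non-coding RNA LINC00659 spread likewise, from 4.17 to 9.20 CPM, against 0.615 to 0.687 CPM (3.20 ± 0.42). TCAF2 (2.41), a regulator of TRP channels, and ISM1 (2.35), a secreted protein, were the other 2 of the 12 largest rises not described so far.

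ER chaperones were the list with the second highest number of calls. Of 20 tested, 9 were higher and 0 lower, with a median of 0.549. HSPA5 (ENSG00000044574, chromosome 9, 125234853 to 125241343), the ER chaperone BiP, measured 1026, 934, 1036 and 1019 CPM in the AII + EGF libraries and 460, 447 and 480 CPM in the EGF libraries. Each joint library was about double each EGF library, 1.12 ± 0.18 on the log2 scale (adjusted p = 3.74e-05). HSP90B1 (ENSG00000166598, chromosome 12, 103930410 to 103947926), the HSP90 of the ER, measured 2322, 2102, 2739 and 2333 CPM against 1088, 1135 and 1030 CPM. The groups were again apart (1.13 ± 0.17, adjusted p = 1.06e-05). The other called members were the cochaperones DNAJB11 (1.19) and SDF2L1 (1.10), HYOU1 (1.00), CRELD2 (0.90), the secreted factor MANF (0.71), and the disulphide isomerases PDIA4 (0.68) and PDIA6 (0.64). AII + EGF replicate 6 held 772 CPM of HSPA5 and 1777 CPM of HSP90B1, above all 3 EGF libraries, and 6 of the 20 were called with it added. The AII libraries, near which this library lay on the scale above, averaged 860 and 1702 CPM. The promoters of both genes are shown with the ER stress element, CCAAT and CCACG with 9 bases of any kind between them, in capitals on either strand (same build and orientation):
HSPA5 promoter, chr9:125241344-125241543, minus strand: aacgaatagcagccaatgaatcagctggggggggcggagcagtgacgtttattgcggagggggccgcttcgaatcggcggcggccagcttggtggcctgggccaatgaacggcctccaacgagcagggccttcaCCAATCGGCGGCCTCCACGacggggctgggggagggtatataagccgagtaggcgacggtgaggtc
HSP90B1 promoter, chr12:103930210-103930409, plus strand: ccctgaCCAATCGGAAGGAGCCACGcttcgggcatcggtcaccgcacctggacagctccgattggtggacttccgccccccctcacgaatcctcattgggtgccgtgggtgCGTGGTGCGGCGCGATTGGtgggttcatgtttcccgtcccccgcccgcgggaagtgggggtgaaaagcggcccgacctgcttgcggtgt
The element was in 5 of 232 raised promoters (2.16%), 0 of 202 lowered promoters and 16 of all 12660 (0.126%), and in 0.142% of those above 5 CPM.

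Metabolic genes changed in smaller numbers. The list of ATF4 targets for amino acid supply and tRNA charging had 6 of 40 called higher and 1 lower (median 0.314). SLC7A11, the cystine transporter, measured 39.2, 38.04, 41.3 and 31.99 CPM against 12.4, 11.9 and 10.95 CPM. All joint libraries were well above EGF (1.68 ± 0.30, adjusted p = 0.000125). AII + EGF replicate 6 (38.8 CPM) and the AII libraries (40.3 CPM on average) were at the same level. CTH (1.05) and PSAT1 (0.78), enzymes of cysteine and serine synthesis, the transporters SLC7A5 (0.88) and SLC38A1 (0.61) and the tRNA synthetase CARS1 (0.61) also rose, while SESN2, a sensor that restrains mTORC1, fell by 0.63. TGATGCAA, the letters of an ATF4 composite site, was in 1.72% of raised, 1.49% of lowered, 0.49% of all promoters and 0.46% of those above 5 CPM. Of 33 targets of hypoxia-inducible factors SLC2A1 (1.05), the glucose transporter GLUT1, and HK2 (0.89), a hexokinase, were called higher (median 0.293), and with replicate 6 added neither was. Of the 33, 30 exceeded 5 CPM, and over all tested genes above 5 CPM 574 of 11625 were called. Of the 7 fits that left out 1 library of the comparison, 7 called SLC2A1 and 1 called HK2.

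**Figure D3:**
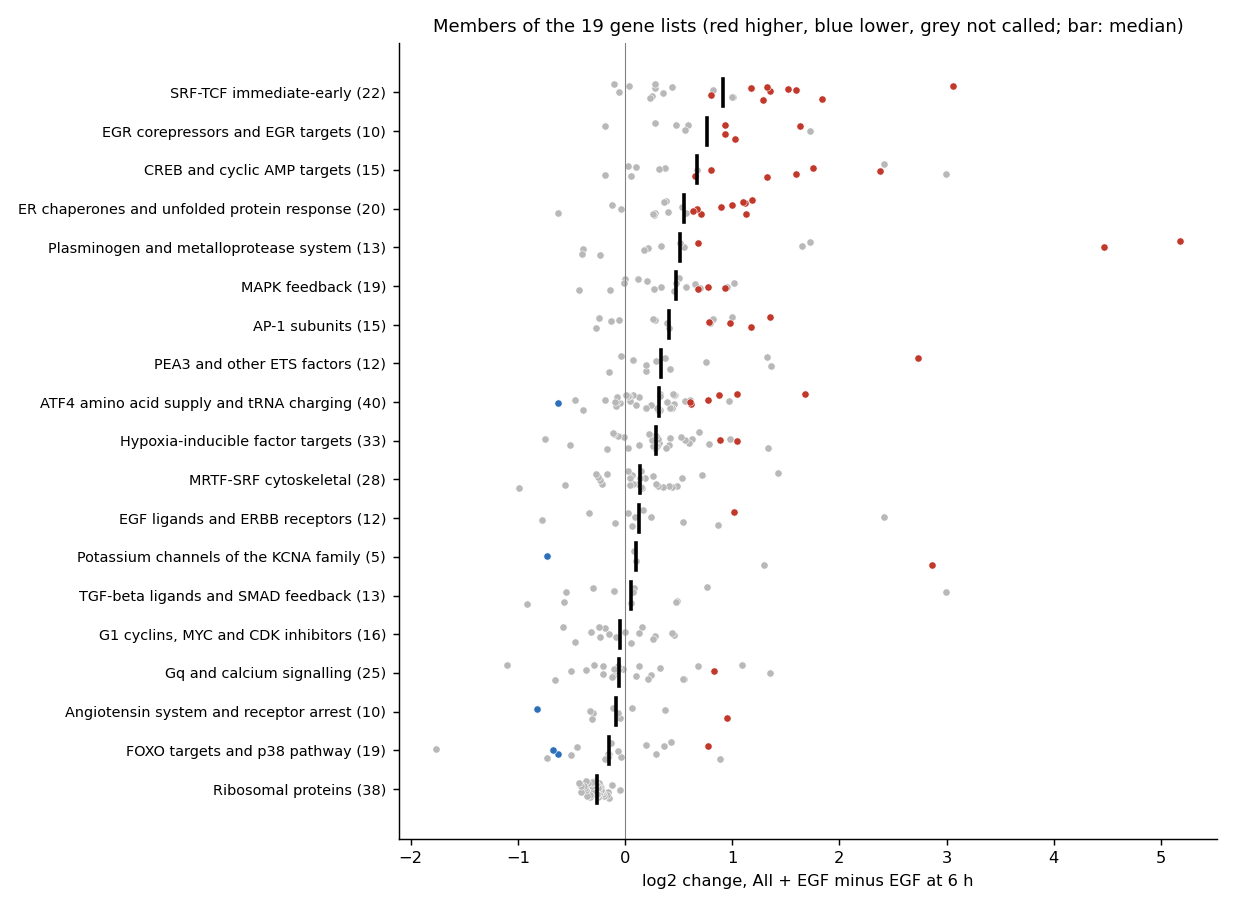
Log2 change (AII + EGF minus EGF at 6 h) of every tested member of 19 gene lists, with a bar at each list's median and called members coloured. SRF-TCF immediate-early genes have the highest median (0.911) and ribosomal proteins the lowest (−0.259).

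The falls were smaller than the rises. The largest called fall was that of UNC5C, a receptor of netrin, with 2.49, 1.87, 2.19 and 1.86 CPM under AII + EGF and 6.11, 6.18 and 6.79 CPM under EGF. All joint libraries were below all EGF libraries (−1.59 ± 0.14, adjusted p = 3.56e-10), whereas AII + EGF replicate 6 was above them (7.69 CPM) and ended the call when added (−0.94, adjusted p = 0.0218). INPP5D, the inositol phosphatase SHIP1, measured 9.41, 8.03, 9.14 and 10.8 CPM against 27.9, 28.5 and 27.1 CPM. The groups were separate (−1.57 ± 0.33, adjusted p = 0.000995). The atypical cadherin FAT4 (−1.21), the matrix protein SMOC1 (−1.25), the desmosomal plakophilin PKP3 (−1.26), the mitochondrial protease OMA1 (−1.30), the DNA glycosylase NTHL1 (−1.25), FAXDC2 (−1.33), PUDP (−1.17) and the ubiquitin ligase adaptors KLHL22 (−1.16) and KBTBD7 (−1.18) were also among the 12 largest falls. SQLE, an enzyme of cholesterol synthesis, fell by 0.63, from a mean of 440 CPM to 285 CPM.

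Genes of the FOXO and p38 pathways had 1 of 19 called higher and 2 lower (median −0.147). ARRDC3, an arrestin-like gene, was higher (0.77), and the transcription factor FOXO4 (−0.62) and the PI3K inhibitor PIK3IP1 (−0.67) were lower. MAP2K6, a kinase that activates p38, changed by −1.76 ± 0.21 (adjusted p = 1.57e-07), but its EGF mean of 4.72 CPM was just under the minimum. G1 cyclins, MYC and CDK inhibitors had 0 of 16 called by edgeR and by DESeq2 (4 at an unadjusted p under 0.05, median −0.0431). Of 38 ribosomal protein genes 0 were called by edgeR and by DESeq2 and 0 had an unadjusted p under 0.05, but all 38 changes lay below 0 (median −0.259). This shift was not stable: it was −0.0543, with 11 genes above 0, when title runs were fitted as a block, and −0.156, with 5 above 0, without the libraries of the first title run.

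The second question was how these changes stand beside those of AII without EGF. AII (5 libraries) against control (4 libraries) at 6 h shares no library with the comparison above. It gave 92 called genes (0.469%), 90 higher (0.459%) and 2 lower. Of the 317 genes higher with EGF, 42 were also called higher without it, which is 13.2% of the 317 and 46.7% of the 90. A call without EGF also needed a mean over 5 CPM under AII, which some of the 317 did not reach. For example, KCNA1 changed by 4.62 (adjusted p = 2.46e-10) and MMP10 by 2.89 (adjusted p = 9.04e-05) under AII alone. They averaged 2.54 and 2.86 CPM under AII and were not called. The 2 falls, AC022075.1 and WASHC3, were also lower with EGF. The median change under AII alone was 0.402 for the 317 rises, of which 304 lay above 0, and −0.215 for the 257 falls, of which 22 lay above 0. ER chaperones were called higher in 9 of 20 under AII alone, with a median of 0.475, and HSPA5 rose by 1.12 in both settings. ATF4 targets were called higher in 9 of 40, and PSAT1 changed by 1.52 without EGF and 0.78 with it. Of SRF-TCF genes 1 of 22 was called under AII alone, with a median of 0.224. NR4A3 changed by 0.88 (adjusted p = 0.0041) but averaged 4.38 CPM under AII, below the CPM minimum.

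**Figure D4:**
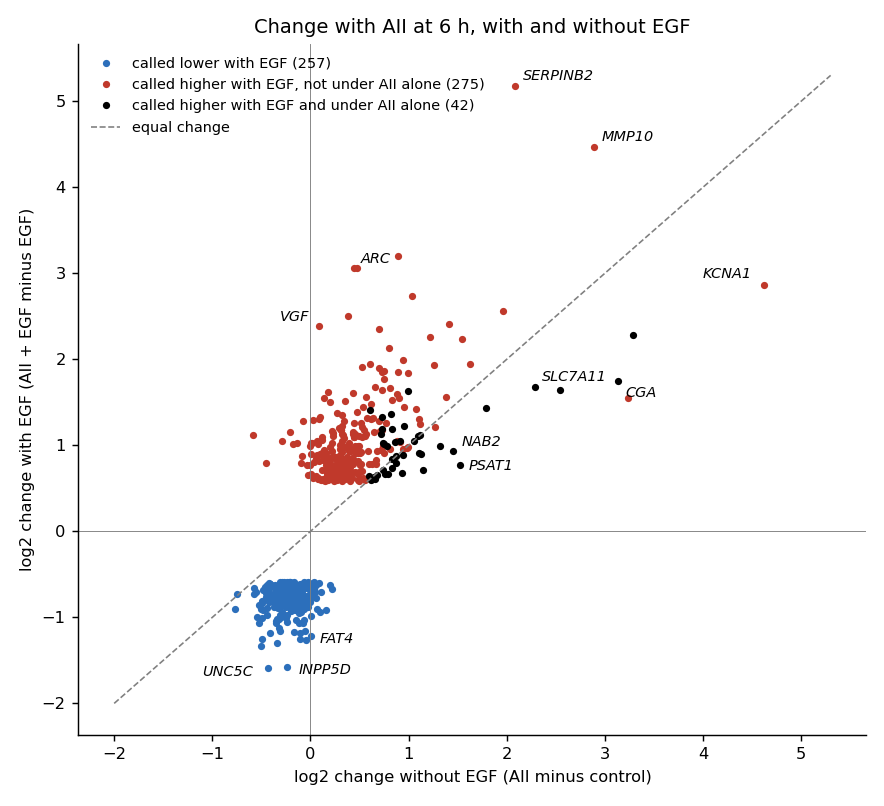
Log2 change by AII with EGF (AII + EGF minus EGF, vertical) against that without EGF (AII minus control, horizontal) at 6 h for the 574 genes called with EGF, with a dashed line of equal change and the 42 genes called higher in both settings in black. ARC and VGF lie far above the line, and CGA, KCNA1 and PSAT1 lie below it.

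Levels in the 4 treatments show where these genes stood. ARC averaged 5.76 ± 0.82 CPM in control, 7.83 ± 1.22 under AII, 29.7 ± 1.97 under EGF and 248 ± 25.6 under AII + EGF (SD, n = 4, 5, 3 and 4). No difference between the first 2 was shown (0.44 ± 0.29, adjusted p = 0.591), and AII + EGF stood above all others. KCNA1 averaged 0.0959 ± 0.0706, 2.54 ± 0.71, 2.68 ± 0.09 and 19.6 ± 1.51 CPM in the same order. The means under the single stimuli differed by less than the SD under AII, and control was far below all others. CGA averaged 1.32 ± 0.49, 11.7 ± 2.78, 1.84 ± 0.21 and 6.21 ± 1.18 CPM. It was highest under AII alone, and AII + EGF stood between AII and the other two. SLC7A11 averaged 8.23 ± 1.75, 40.3 ± 9.07, 11.7 ± 0.73 and 37.6 ± 3.98 CPM, with both groups given AII high and both others low.

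The third question was whether the change by AII differed with and without EGF. The interaction, the log2 change with EGF minus that without, was called for 45 genes (0.229%), 18 above 0 and 27 below. With title runs fitted as a block 168 were called, 81 above 0 and 87 below, and DESeq2 called 94. ARC had the highest value (2.61 ± 0.41, adjusted p = 0.000495), then VGF (2.29 ± 0.43, adjusted p = 0.0036), and neither gene was called under AII alone. HOMER1, a scaffold protein of synapses (1.42 ± 0.17, adjusted p = 5.49e-06), IL6R, the IL-6 receptor (1.39 ± 0.26, adjusted p = 0.00384), HBEGF (1.19 ± 0.19) and FOSL2 (0.78 ± 0.14) followed the same pattern. HOMER1 and IL6R lie outside the rule for named genes and were chosen after their values were seen. The lowest values were those of FAT4 (−1.22), PKP3 (−1.21), CPLANE2 (−1.21) and UNC5C (−1.16). FAT4 averaged 12.9 ± 1.21 CPM under EGF and 5.58 ± 0.26 CPM under AII + EGF, and changed by 0.01 ± 0.16 under AII alone. Over all 19626 genes tested 1916 had an unadjusted p under 0.05 in this test. The sets of genes that follow were chosen by the calls with and without EGF that the interaction compares. Their counts therefore follow in part from that choice. Among the 42 genes higher in both settings 0 interactions were called by edgeR (12 at an unadjusted p under 0.05, and 1 call by DESeq2), with medians of 0.996 with EGF and 0.865 without. Among the 275 rises not called under AII alone 18 were called (187 at an unadjusted p under 0.05, 46 by DESeq2), so for most of them a difference was not shown at this threshold. Among 48 genes called higher under AII alone only, 2 were called: SEL1L3 changed by −0.21 with EGF and 0.79 without, and SLC1A4, an amino acid transporter, by 0.03 and 0.94. The interaction calls rest on the exclusion of AII + EGF replicate 6: with it added 0 genes were called by edgeR, and 1439 had an unadjusted p under 0.05. They also fell to 19, 11 and 14 without EGF replicate 3, 4 or 5, to 28 without AII + EGF replicate 2, to 26 without AII + EGF replicate 3 and to 28 without control replicate 6.

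The last question was whether the change was still present at 24 h. AII + EGF (6 libraries) against EGF (5 libraries) at 24 h gave 18 called genes (0.0917%), 16 higher (0.0815%) and 2 lower. The genes called higher at both times were ARC, C11orf96, CLU, EMP1, HID1, IL6R, TNFRSF12A and UPP1. These 8 genes are 2.52% of the 317 rises at 6 h and 50% of those at 24 h. KBTBD7 was lower at both times (−1.18 at 6 h and −0.74 at 24 h). ARC averaged 42.9 ± 16.7 CPM under AII + EGF and 17.4 ± 6.22 CPM under EGF at 24 h, a change of 1.30 ± 0.24 (adjusted p = 0.00408). SERPINB2 was at 0.571 ± 0.34 and 0.230 ± 0.08 CPM, and MMP10 at 2.36 ± 1.13 and 1.33 ± 0.56 CPM. Their changes at 24 h were 1.27 (adjusted p = 0.14) and 0.83 (adjusted p = 0.327), and with means under 5 CPM neither gene could be called. VGF changed by 1.47 ± 0.26 at 24 h (adjusted p = 0.00271) but averaged 3.41 CPM under AII + EGF, also below the CPM minimum. LAMB3, a laminin subunit, was called at 24 h alone, with 11.4 ± 2.58 against 3.89 ± 0.83 CPM (1.54 ± 0.18, adjusted p = 3.02e-06), whereas at 6 h its values of 1.98 to 2.53 CPM and 2.06 to 2.35 CPM overlapped. The 24 h count was sensitive to single libraries: it was 7 to 9 without AII + EGF replicate 3, 4 or 5 of 24 h, 61 without AII + EGF replicate 6 of 24 h, 8, 10 and 8 without EGF replicates 3, 5 and 6 of 24 h, and 1 when AII + EGF replicate 6 of 6 h entered the shared fit. With title runs as a block it was 73.

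The difference between times, the log2 change at 24 h minus that at 6 h, was called for 333 genes (1.7%), 165 above 0 and 168 below, and for 698 with title runs fitted as a block. SERPINB2 (−3.91 ± 0.58, adjusted p = 4.70e-05), MMP10 (−3.64 ± 0.52, adjusted p = 2.74e-05) and NTSR1 (−2.85 ± 0.60, adjusted p = 0.00272) had the lowest values among named genes. EGR3, with 4.99 ± 1.14 CPM under AII + EGF and 4.71 ± 1.88 CPM under EGF at 24 h, had a difference of −1.75 ± 0.31 (adjusted p = 0.000436). UNC5C and FAT4 were at 13.4 ± 0.94 and 19.1 ± 2.1 CPM under AII + EGF and at 15.2 ± 1.76 and 22.5 ± 3.25 CPM under EGF at 24 h, and their differences were 1.41 ± 0.17 and 0.98 ± 0.23. For both genes the fall was larger at 6 h than at 24 h. For VGF (−0.91, adjusted p = 0.177) and HSPA5 (−0.68, adjusted p = 0.0691) no difference between times was shown. The median change at 24 h of the 317 rises was 0.136 and of the 257 falls −0.0169. Without EGF 6 h replicate 3, 4 or 5 this count was 202, 201 or 184, and with AII + EGF 6 h replicate 6 added it was 20.

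**Figure D5:**
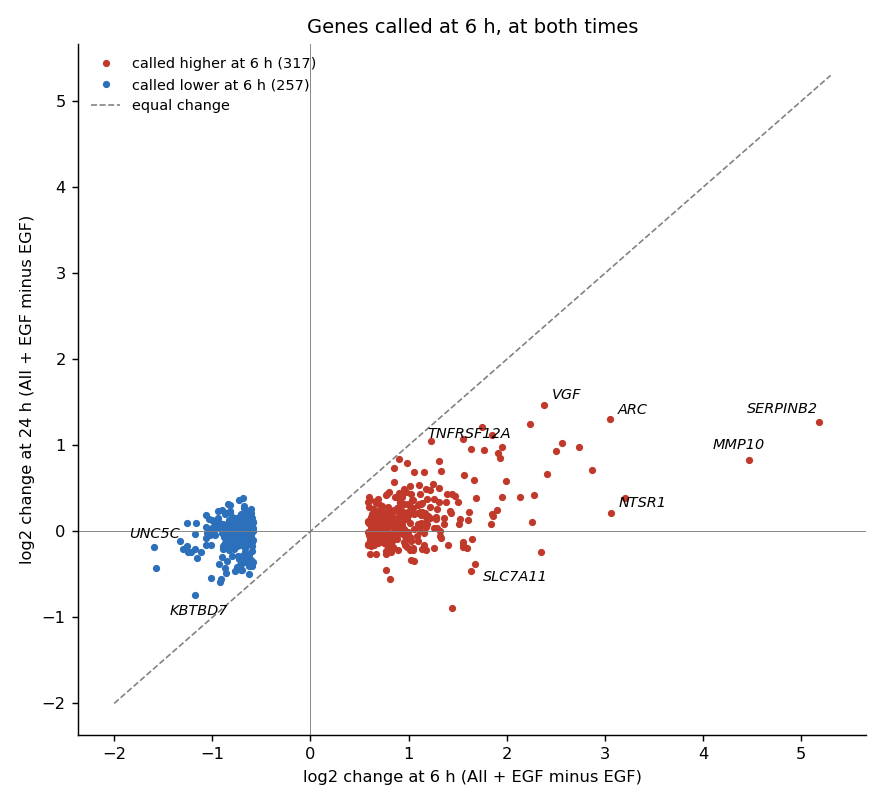
Log2 change by AII in the presence of EGF at 24 h (vertical) against that at 6 h (horizontal) for the 574 genes called at 6 h, with a dashed line of equal change. SERPINB2 and MMP10 lie far right at 5.18 and 4.47 and only at 1.27 and 0.83 at 24 h, and most called falls lie near 0 at 24 h.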

How the data were processed

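The authors aligned paired reads of poly(A) RNA to the human genome (hg38) with HISAT2 2.1.0, counted them per Ensembl gene with featureCounts and deposited these raw counts for 48 libraries (17.8 to 36.2 M each). Whether counting used strand or multi-mapped reads is not given in the sources used here, so antisense, overlapping and paralogous genes are uncertain. Of 60610 genes listed, 44295 had a count, and 37 mitochondrial genes were at 0.

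Groups were read from the labels. The 8 libraries of near-identical pairs and 2 in doubt (replicate 6 of AII and of AII + EGF at 6 h) were left out. The other 38, in 8 groups, were fitted with edgeR 4.0.16 in R 4.3.3 (filterByExpr, 19626 genes, TMM factors, quasi-likelihood test, no covariates). The minimum of 5 CPM applied to the highest of the 4 group means for interactions and time differences. DESeq2 1.42.0, other factors, filters, thresholds and sets of libraries, a block of title runs and leaving out each library were the alternatives. The steps were tested on simulated data.

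The members, gene lists and tests were chosen with earlier results of these data known. Named genes (72) were the 12 largest rises and falls, up to 4 called genes of each list and direction, 9 genes of interest, the 3 highest and lowest interactions and time differences, and the 3 called genes of highest CPM in each direction. Of these, 2 have near-identical copies and are not described, and 1 other is not reported here. Positions and promoters come from RefSeq (GRCh38.p14).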

Additional observations from a re-analysis of the deposited data

Results flagged for a closer look

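Among 69 named genes, the 4 AII + EGF libraries at 6 h were searched for a value far from the rest (a gap, as a share of the range, above Dixon's critical value for 4 values, which chance exceeds in about 1 of 20 groups), and 2 were found. HSPA5 was low in replicate 2 (933.7 CPM, ratio 0.834) and NTHL1 was high in replicate 5 (4.179 CPM, ratio 0.841).

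The change by AII differed between cells with and without EGF, by the interaction test, for 12 named genes. Over all 19626 genes tested it was 45 (0.229%). The named genes were chosen in part by the change with EGF and by the interaction itself, so their count is no measure of how common such differences are. Values above 0 were those of ARC (2.61), VGF (2.29), HBEGF (1.19) and FOSL2 (0.777). Values below 0 were those of FOXO4 (−0.639), PUDP (−1.0), KLHL22 (−1.11), SMOC1 (−1.14), UNC5C (−1.16), CPLANE2 (−1.21), PKP3 (−1.21) and FAT4 (−1.22).

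The change by AII in the presence of EGF differed between 24 h and 6 h, by the test of that difference, for 41 named genes. Over all 19626 genes tested it was 333 (1.7%). The named genes were chosen in part by their change at 6 h, which enters this difference, and by the difference itself. Their count and its directions therefore follow in part from that choice. The change was lower at 24 h for 27. Among these were the serpin gene SERPINB2 (−3.91), the protease gene MMP10 (−3.64) and the cytokine gene IL11 (−1.57). Peptide, receptor and matrix genes were NTSR1 (−2.85), ISM1 (−2.59), TAC1 (−1.54), HBEGF (−0.916), EGFR (−0.761) and TNC (−1.07). LINC00659 (−2.81) and TCAF2 (−1.74) were also lower. Immediate-early and AP-1 genes were NR4A3 (−1.80), ARC (−1.75), EGR3 (−1.75), NR4A1 (−1.41), JUNB (−1.27) and FOSL2 (−1.16). The others were SLC7A11 (−2.06), SLC2A1 (−1.26), CTH (−1.24), DNAJB11 (−1.11), HSP90B1 (−1.03), ARRDC3 (−1.03), SLC7A5 (−0.971), ATP2B1 (−0.959), PSAT1 (−0.938) and SPRED1 (−0.792). It was higher at 24 h for 14: MAP2K6 (1.60), LAMB3 (1.55), CPLANE2 (1.49), UNC5C (1.41), NTHL1 (1.35), KLHL22 (1.26), FAXDC2 (1.22), PUDP (1.15), PKP3 (1.09), SMOC1 (1.01), FAT4 (0.978), AGTRAP (0.931), KCNAB2 (0.888) and FOXO4 (0.805).

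The libraries left out gave a signal outside the main measurement. On a scale from the EGF (0) to the AII + EGF libraries (1) at 6 h over 104 genes, AII + EGF replicate 6 lay at −0.261 and AII replicate 6 at 0.738. EGF replicate 1 lay at 0.623 and AII + EGF replicate 4, which is near-identical to it, at 0.627. EGF replicates 2 and 6, near-identical to each other, lay at −0.0232 and −0.0185. The cause was not tested.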

How the results depend on the processing

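No paired analysis was possible because the titles carry no replicate numbers shared between groups, so pairs by replicate number could not be formed, and runs of consecutive titles were fitted as a block in their place. The 574 calls of AII + EGF against EGF at 6 h became 896 without a fold minimum, 64 with all 48 libraries, 33 with both libraries in doubt, 121 with AII + EGF replicate 6 added (120 of the 574) and 366 without the second library of adjacent titles (added after seeing the data), and leaving out 1 library of the comparison gave 394 to 558. Under the other 13 alternatives the count lay between 385 and 753. The 92 calls of AII against control became 146 without a fold minimum and 55 with AII + EGF replicate 6 in the fit. The 45 interactions became 94 by DESeq2, 21 without a filter, 109 at an adjusted p under 0.05, 109 with the 6 h groups alone, 10 with the near-identical pairs, 168 with title runs as a block and 10 without the first title run. They became 0 by edgeR with all 48 libraries (902 at an unadjusted p under 0.05), with both libraries in doubt (691) and with replicate 6 added (1439), and 11 to 49 on leaving out 1 library. The 333 differences between times became 505 by DESeq2, 657 at an adjusted p under 0.05, 3 with all 48 libraries, 8 with both in doubt, 20 with replicate 6 added, 698 with the block, 157 without the first run and 184 to 360 on leaving out 1 library. The 18 calls at 24 h (alternatives added after seeing the data) became 34 by DESeq2, 33 at an adjusted p under 0.05, 2 with their own groups alone, 6 with all 48 libraries, 1 with both in doubt, 1 with replicate 6 of 6 h added, 73 with the block, 11 without the first run and 7 to 61 on leaving out 1 library. The cause was not tested. Of 65 called named genes, 25 were called with replicate 6 added, 18 with all 48 libraries and 50 in all 7 fits that left out 1 library of the comparison, and 0 changed sign. The fewest of these 7 fits called HK2 (1), SESN2 (3), SDF2L1 (4) and SQLE (4). Genes of low counts rest on fewer reads in the AII + EGF libraries than in the deeper EGF libraries.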

Other observations

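The following genes called higher under AII + EGF than under EGF at 6 h lie outside the rule for named genes and were chosen after their values were seen, so they stand as values alone. Several encode proteins of the cell surface or of coagulation. TFPI2, a secreted inhibitor of serine proteases, averaged 15 ± 4.32 CPM under AII + EGF and 3.13 ± 0.58 CPM under EGF (log2 change 2.26 ± 0.25). F3, tissue factor, averaged 11.2 ± 1.54 and 4.87 ± 0.13 CPM (1.2 ± 0.16). GPR3, a receptor that raises cyclic AMP, averaged 17.3 ± 0.85 and 4.63 ± 0.79 CPM (1.90 ± 0.25). TFRC, the transferrin receptor, averaged 111 ± 20.5 and 35.7 ± 2.54 CPM (1.64 ± 0.23).

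The transcription cofactor gene LBH and the glycine transporter gene SLC6A9 changed by 2.28 ± 0.24 and 1.65 ± 0.20 with EGF and by 3.28 ± 0.23 and 2.54 ± 0.19 without it. Their interactions, of −1.0 ± 0.31 (adjusted p = 0.137) and −0.89 ± 0.27 (adjusted p = 0.125), were not called.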
